A study of Mus musculus with 12 samples.

Results

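Granulocyte-macrophage progenitors (GMPs) were compared with LSK cells in 4 genotypes without disease, on 8 of the series' 12 arrays. LSK cells are the bone marrow cells that lack lineage markers and carry Sca-1 and c-Kit, the fraction that holds blood stem cells and multipotent progenitors. The 8 arrays were chosen by their titles, which name a cell type and a genotype and no disease, and no measured value entered the choice. Each genotype gave 1 LSK array and 1 GMP array, so the comparison rests on 4 pairs. The cells were purified from the bone marrow of C57BL/6 recipient mice whose blood system came from transplanted fetal liver cells, and this holds for the wild-type controls as well. The donor cells were wild-type, Tet2KD/KD (a hypomorphic or knockdown allele of Tet2), Ezh2-/- or Tet2KD/KDEzh2-/-. These groups are called wild-type, Tet2 knockdown, Ezh2-null and double mutant here, as the labels name them, and 4 values in a row follow that order. The other 4 arrays of the series hold double mutant LSK cells and GMPs labelled MDS/MPN or RAEB, diseases of the blood-forming marrow, and they are used only where named. The ages, the number of mice behind an RNA sample, and whether both cell types of a genotype came from the same mice are not given in the sources used here. The standard errors (SE) and p-values therefore measure only the spread of the difference between these 4 genotype pairs, not between mice of 1 genotype.

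Blood formation runs from multipotent cells to progenitors that are restricted to fewer lineages. LSK cells keep stem cell regulators active together with low levels of genes of several later lineages, among them lymphoid and megakaryocytic genes. In GMPs the transcription factors PU.1 (encoded by Spi1) and the C/EBP proteins drive the genes of granulocytes and monocytes. The first granule proteins made on this path are those of the azurophil, or primary, granules: myeloperoxidase and the serine proteases elastase, proteinase 3 and cathepsin G. The secondary and tertiary granule proteins are made later, after the progenitor stage.

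A level is given here as log2 of the spot's processed intensity relative to the 75th percentile of its array, so that 0 is that percentile, and a difference is the mean over the 4 pairs of the GMP level minus the LSK level, ± its SE. The 8 arrays were alike in quality. Between 47.9% and 51.4% of gene spots were well above background, the 75th percentile of the processed intensity lay between 195 and 275, no gene spot was saturated, and the median coefficient of variation of replicated probes was 4.49% to 5.34%. The lowest level that counted as above background was between -4.25 and -4.03. All 8 arrays were on 1 slide and in 1 scan, with every LSK array in row 1 and every GMP array in row 2, so the cell type and the row of the slide cannot be told apart. Over all genes tested, arrays of 1 cell type correlated at 0.982 to 0.99 and arrays of different cell types at 0.907 to 0.925, which is a description of arrays that share a slide.

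The altered genes were read first. Tet2, whose enzyme oxidises methylated cytosine, had levels of 0.44, -1.61, 0.12 and -0.79 in LSK cells and 1.57, -0.64, 1.51 and -1.01 in GMPs. Both arrays of each cell type that carry the knockdown allele were lower than both without it. The levels of Ezh2, which encodes the histone H3 lysine 27 methyltransferase of Polycomb complex 2, were 2.76, 2.50, 2.82 and 2.65 in LSK cells and 3.23, 3.40, 3.35 and 3.12 in GMPs. The Ezh2-null arrays were not lower than the wild-type arrays. The double mutant arrays read slightly lower than the wild-type arrays in both cell types. The sources used here do not place the probe inside or outside the deletion, so it checks nothing about the Ezh2 labels, and every statement on Ezh2 loss below rests on those labels.

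The promoters of 3 primary granule genes and of Ms4a3 are shown because these genes rose by at least 4.36 on the log2 scale and because Elane and Prtn3 are close neighbours, with promoter windows that start 6645 bases apart. Each window runs from 250 bases before to 50 bases after the RefSeq transcription start (build GRCm38.p6), 5′ to 3′ on the gene's strand. Capitals mark a PU.1 type match (GAGGAAG) or, in Ms4a3, a C/EBP type match (TTGCNNAA).
Elane promoter, chr10:79886062-79886361, + strand: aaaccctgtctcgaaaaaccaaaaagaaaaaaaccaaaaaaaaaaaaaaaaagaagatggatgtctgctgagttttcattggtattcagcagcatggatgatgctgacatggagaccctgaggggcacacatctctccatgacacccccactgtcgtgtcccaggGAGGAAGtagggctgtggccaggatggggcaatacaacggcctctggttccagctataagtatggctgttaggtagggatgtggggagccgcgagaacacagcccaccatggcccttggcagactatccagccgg
Prtn3 promoter, chr10:79879417-79879716, + strand: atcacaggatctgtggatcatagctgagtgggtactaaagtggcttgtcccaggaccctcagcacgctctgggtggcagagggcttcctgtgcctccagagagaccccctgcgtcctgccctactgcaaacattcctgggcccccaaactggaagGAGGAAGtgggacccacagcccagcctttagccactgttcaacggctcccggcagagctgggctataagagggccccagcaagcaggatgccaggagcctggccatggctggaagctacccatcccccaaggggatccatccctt
Ctsg promoter, chr14:56102525-56102824, - strand: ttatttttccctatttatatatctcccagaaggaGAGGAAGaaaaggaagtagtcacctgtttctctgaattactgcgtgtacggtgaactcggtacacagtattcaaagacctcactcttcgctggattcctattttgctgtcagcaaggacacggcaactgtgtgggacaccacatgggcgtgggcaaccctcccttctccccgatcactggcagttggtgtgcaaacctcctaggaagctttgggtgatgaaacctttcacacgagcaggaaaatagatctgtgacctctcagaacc
Ms4a3 promoter, chr19:11640802-11641101, - strand: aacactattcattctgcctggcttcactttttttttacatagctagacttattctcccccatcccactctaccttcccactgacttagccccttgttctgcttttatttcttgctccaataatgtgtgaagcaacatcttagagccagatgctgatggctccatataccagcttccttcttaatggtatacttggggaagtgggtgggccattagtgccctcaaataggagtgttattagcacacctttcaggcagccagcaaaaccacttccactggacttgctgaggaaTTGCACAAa

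The PU.1 type letters began at position -85 in Elane, -95 in Prtn3 and -216 in Ctsg, counted from the transcription start. In Ms4a3 the C/EBP type letters began 41 bases past it. Both strands were searched, and the letters GAGGAAG were present in 13.6% of all 32851 RefSeq windows of this length. Among the primary granule genes 7 of 21 windows, from 18 genes, held them (33.3%), and 5 of 21 held the C/EBP type letters (23.8%), against 10.8% of all windows. Among genes at least 4-fold higher in GMPs the PU.1 type share was 16.9%, and among genes at least 4-fold lower it was 16.1%. The C/EBP type shares of these groups were 14% and 8.94%. The motifs were chosen with the expression values known, and a match describes letters in a window, not a bound site.

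Elane encodes neutrophil elastase. Its level was 2.50, 2.44, 1.69 and 2.41 in LSK cells and 8.98, 8.92, 8.55 and 9.07 in GMPs. No LSK array came within 6 log2 units of any GMP array, and the difference of 6.62 ± 0.12 passed the test (adjusted p = 1.47e-05, limma with genotype as a block). Ms4a3, a membrane protein gene of granulocyte and monocyte progenitors, had levels of 1.93, 1.11, 0.39 and 1.33 in LSK cells and 8.30, 7.81, 7.69 and 8.40 in GMPs. It rose by 6.86 ± 0.18 (adjusted p = 3.16e-05), and its lowest LSK value was again on the Ezh2-null array. In the opposite direction, Dntt, the terminal transferase of early lymphoid cells, had levels of 7.43, 7.32, 8.83 and 8.36 in LSK cells and -2.55, -2.68, -1.92 and -1.97 in GMPs. Its difference of -10.27 ± 0.16 (adjusted p = 1.2e-05) was the largest of any gene measured above background on all 8 arrays. Mycn, a Myc family transcription factor of stem and multipotent cells, lay between 2.23 and 2.34 in LSK cells and was not well above background on any GMP array. It was at least 84.1-fold lower in GMPs (adjusted p = 1.2e-05), a bound set by the GMP arrays' lowest signal above background. The direction of all 4 markers matched the cell type on the label in 4 of 4 pairs. In sorted pools such as these, fewer cells of a type and less RNA per cell cannot be told apart.

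**Figure D1:**
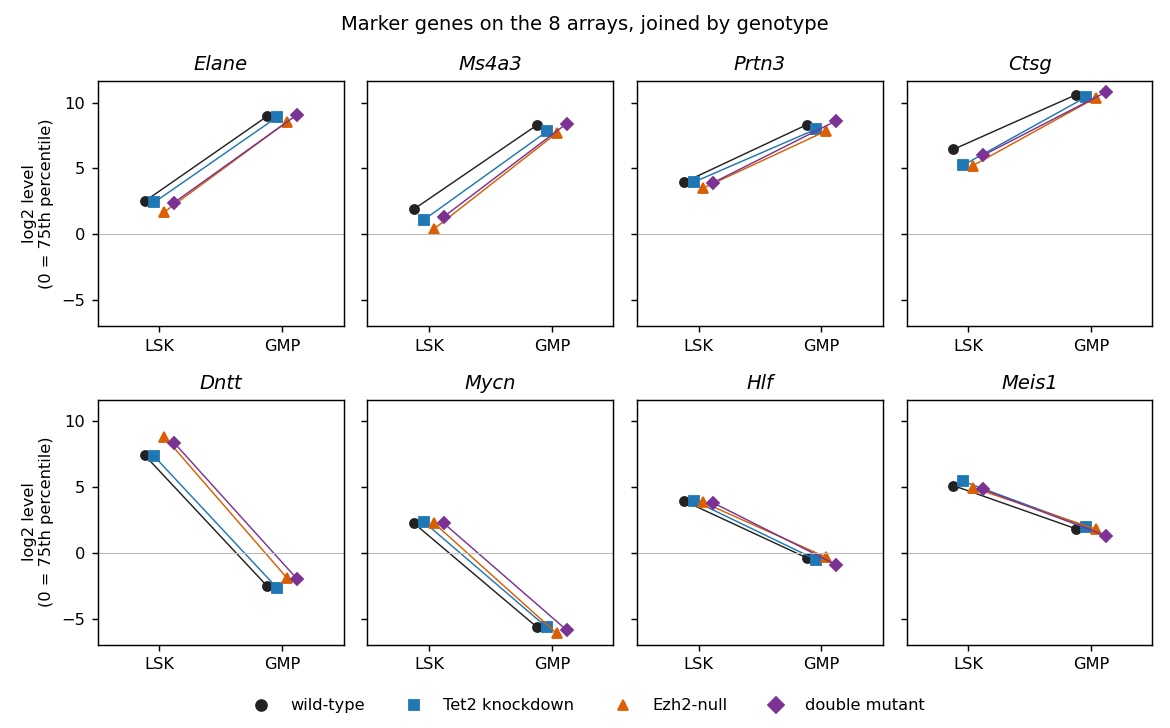
Levels of 8 genes on each of the 8 arrays (y axis, log2 of processed intensity relative to the array's 75th percentile), with LSK on the left, GMP on the right and a line joining the arrays of a genotype. Elane, Ms4a3, Prtn3 and Ctsg were higher and Dntt, Mycn, Hlf and Meis1 lower on every GMP array than on every LSK array, and Mycn was not well above background on any GMP array.

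Of 13418 genes tested, 7174 differed between the cell types at an adjusted p under 0.05 (53.5%). Of these, 4231 were higher in GMPs (31.5% of genes tested) and 2943 were lower (21.9%). All 4 pairs had the same sign for 7092 of the called genes and for 8718 of all genes tested (65%). The test used the same 4 pairs, so the agreement among called genes adds no support. The split between directions depends on the scaling: higher calls made up 59% of all calls here, 49.6% after quantile normalization (3420 higher, 3482 lower) and 41.2% when the percentile was taken over probes above background on all 8 arrays (2899 higher, 4134 lower). The median difference over all genes tested was 0.126 in the main scaling, and moderate differences are read against it. Large differences leaned towards loss in GMPs. Among called genes 402 were at least 4-fold higher and 847 at least 4-fold lower. Of all called genes, whatever the size of the difference, 85 were at background on all 4 LSK arrays and above it on all 4 GMP arrays. The reverse held for 296 genes. Cell type accounted for 77.8% of the summed variance of the 8 arrays and genotype for 13.6%. On simulated arrays of the same size, 100 genes were changed by 1 log2 unit and 100 by 2 units. Of these 54% and 87% were recovered. Far fewer genes changed there than were called here, so these shares do not give the recovery in this comparison.

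**Figure D2:**
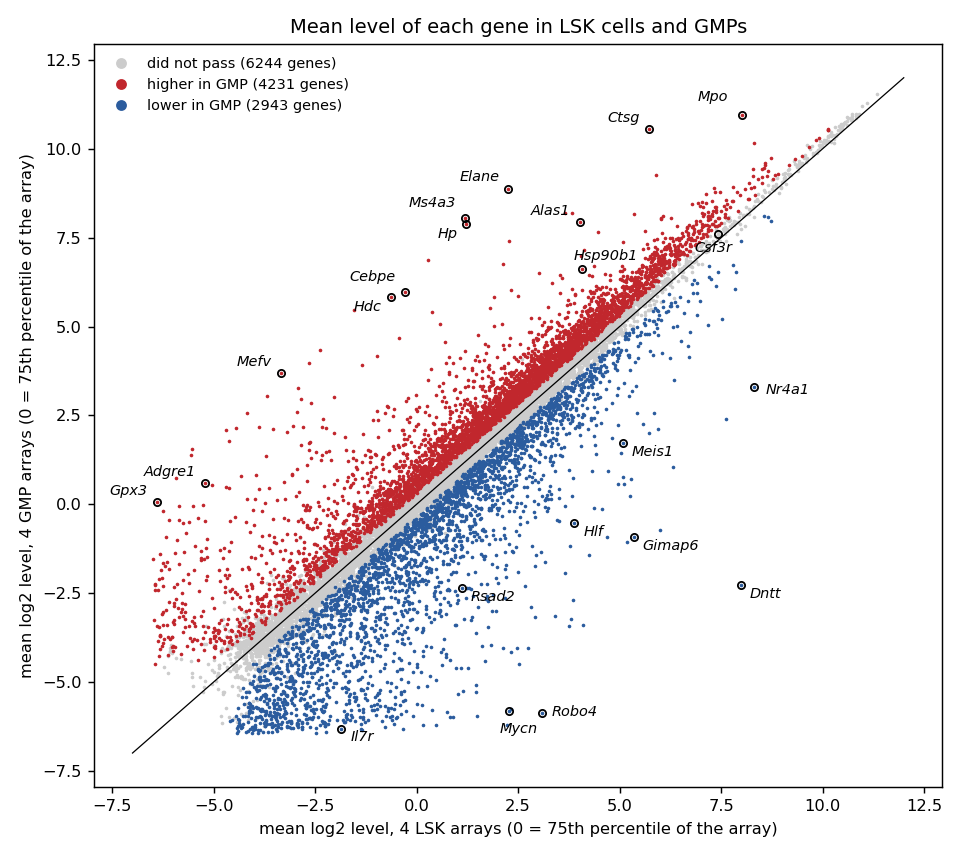
Mean level of each of the 13418 genes tested on the 4 LSK arrays (x axis) and the 4 GMP arrays (y axis), in log2 units with 0 at the array's 75th percentile. Red genes were higher and blue genes lower in GMPs at an adjusted p under 0.05, grey genes did not pass, the line marks equal levels, and the cloud of blue genes at the lower edge holds genes near background in GMPs.

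Among genes above background on all 8 arrays, the largest positive difference was that of Mefv, which encodes pyrin, a sensor of the inflammasome. It rose by 7.05 ± 0.22. Hp, the haemoglobin-binding plasma protein haptoglobin that neutrophil precursors also store, rose by 6.66 ± 0.21, and F13a1, a coagulation factor subunit of monocytes and platelets, by 6.58 ± 0.25. Igsf6, Dmkn and Cldn15 rose by 7.02, 6.71 and 6.63. Beside Dntt, the largest negative differences were those of Slc16a11 (-7.51), the beta globin gene Hbb-bt (-6.72), Eya2 (-6.53), the immune GTPases Gimap6 (-6.28) and Gimap1 (-5.69), the cytokine gene Ltb (-6.25) and Hnf4a (-5.73). The same sign in 4 of 4 pairs was a condition for naming these genes, so it is no further result. Among genes above background in only 1 of the cell types, the lower bounds were highest for Mogat2 (at least 79.2-fold higher in GMPs) and Trem2 (at least 69.9-fold), a lipid receptor of macrophages. They were highest in the other direction for Robo4 (at least 148.5-fold lower) and Tbxa2r (at least 99.9-fold), the thromboxane receptor of platelets.

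Of the 23 primary granule genes, all of which were tested, 21 rose in GMPs and none fell, with a median difference of 2.28. The medians in the 4 pairs were 2.22, 1.83, 2.30 and 2.48. Prtn3, which encodes proteinase 3, had levels of 3.94, 3.96, 3.52 and 3.93 in LSK cells and 8.32, 8.00, 7.86 and 8.62 in GMPs. It rose by 4.36 ± 0.14. Ctsg, which encodes cathepsin G, rose from 6.45, 5.26, 5.22 and 5.99 to 10.61, 10.43, 10.38 and 10.80, a difference of 4.82 ± 0.20. Mpo, the myeloperoxidase gene, stood at 7.86, 7.87, 7.83 and 8.54 in LSK cells and at 10.93, 10.89, 10.86 and 11.12 in GMPs. Its difference was 2.93 ± 0.13, and as for Prtn3 and Ctsg every GMP array lay above every LSK array. The processing and packaging genes of the same granules rose too: Ctsc, whose protease activates the others, by 1.40 ± 0.17, the cystatin gene Cst7 by 2.92 ± 0.20 and the granule proteoglycan gene Srgn by 0.86 ± 0.15. The members that did not pass were Ap3b1 (0.29 ± 0.10, adjusted p = 0.0513) and Lyz2 (0.44 ± 0.23, adjusted p = 0.151), one of 2 lysozyme genes.

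Genes of the later granules were mixed. Of 25 listed, 19 were tested, 11 rose and 2 fell. The 11 include Hdc (6.46), the transcription factor gene Cebpe (6.26), Cybb (at least 10.3-fold higher) and Anxa1 (1.72). Hdc, Cebpe and Cybb are also counted in other lists and are described with those below. Lcn2, which encodes lipocalin 2, rose by 3.35 ± 0.29, and Pglyrp1, a peptidoglycan recognition protein, rose by 1.99 ± 0.22. Mmp8, neutrophil collagenase, had levels of -3.37, -6.08, -6.27 and -4.98 in LSK cells, only the first of them above background, and -1.22, -0.94, -1.23 and -0.58 in GMPs, and it rose in the fit (adjusted p = 0.0016). Ltf, which encodes lactoferrin of the secondary granules, went the other way, with a difference of -1.48 ± 0.48 (adjusted p = 0.0432), as did the histone deiminase gene Padi4 (-2.94 ± 0.25). Camp, S100a8, S100a9, Ngp, Retnlg and Chil3 did not pass. For several of these the wild-type LSK array stood apart from the other 3 LSK arrays. S100a8, a subunit of calprotectin, read 4.47 there against 2.38, 2.21 and 1.31, and Ltf read 0.32 against -2.72, -2.31 and -2.28. The summed level of 6 mature neutrophil markers was 3.76 on that array and 0.75 to 1.55 on the other 3, against 2.75 to 3.55 in GMPs, and its part in the result was not tested. Without the wild-type pair 13 of the 19 rose and 1 fell, and the median moved from 1.72 to 1.85.

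The eosinophil genes had positive median differences in 3 of the 4 genotype pairs. Of 15 listed genes 12 were tested, 10 rose and 1, Gata1, fell (-1.62 ± 0.24). The median differences of the pairs were 2.37, -0.08, 3.91 and 3.97, with the Tet2 knockdown pair alone below 0. Prg2, the major basic protein of eosinophil granules, had levels of 1.44, 0.86, 1.31 and -1.31 in LSK cells and 5.65, 3.77, 5.42 and 5.41 in GMPs, a difference of 4.49 ± 0.59. The difference was positive in each pair, and smallest in the Tet2 knockdown pair. Ear2, an eosinophil ribonuclease, had levels of 0.86, 0.47, -1.64 and -1.09 in LSK cells and 3.18, -0.04, 2.48 and 2.78 in GMPs. On the Tet2 knockdown arrays it was lower in GMPs than in LSK cells, so the groups overlapped, and its difference of 2.45 ± 0.78 (adjusted p = 0.0417) passed in 13 of 19 alternative analyses. Ear1, Ear6, Ear10 and Rnase2a were likewise lower in GMPs than in LSK cells in the Tet2 knockdown pair alone. These genes are close paralogs, and whether their probes bind each other's transcripts was not tested. Prg2, Prg3, Epx and Siglecf were higher in GMPs in 4 of 4 pairs. Without the Tet2 knockdown pair 11 of the 12 rose, and without any other single pair 5 rose.

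Mast cell and basophil genes were also higher in GMPs: 13 of 18 tested rose and 2 fell, with a median difference of 1.30. Among all genes tested, 31.5% were higher and 21.9% lower. Hdc is also counted with the later granule genes, and Fcer1g with the pathogen sensing genes. Hdc, the histamine-forming enzyme, had levels of -0.21, -0.79, -1.14 and -0.38 in LSK cells and 5.78, 5.67, 5.95 and 5.93 in GMPs. The groups were far apart, with a difference of 6.46 ± 0.19. The basophil protease genes Mcpt8 (3.46 ± 0.30) and Prss34 (4.37 ± 0.52, above background on 3 of 4 LSK arrays) and the mast cell carboxypeptidase gene Cpa3 (2.91 ± 0.24) rose as well. So did both Fc receptor subunits for immunoglobulin E, Fcer1a (2.34 ± 0.29) and Fcer1g (3.72 ± 0.15). Gata2, a transcription factor that mast cells share with stem cells, fell by 2.13 ± 0.30.

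**Figure D3:**
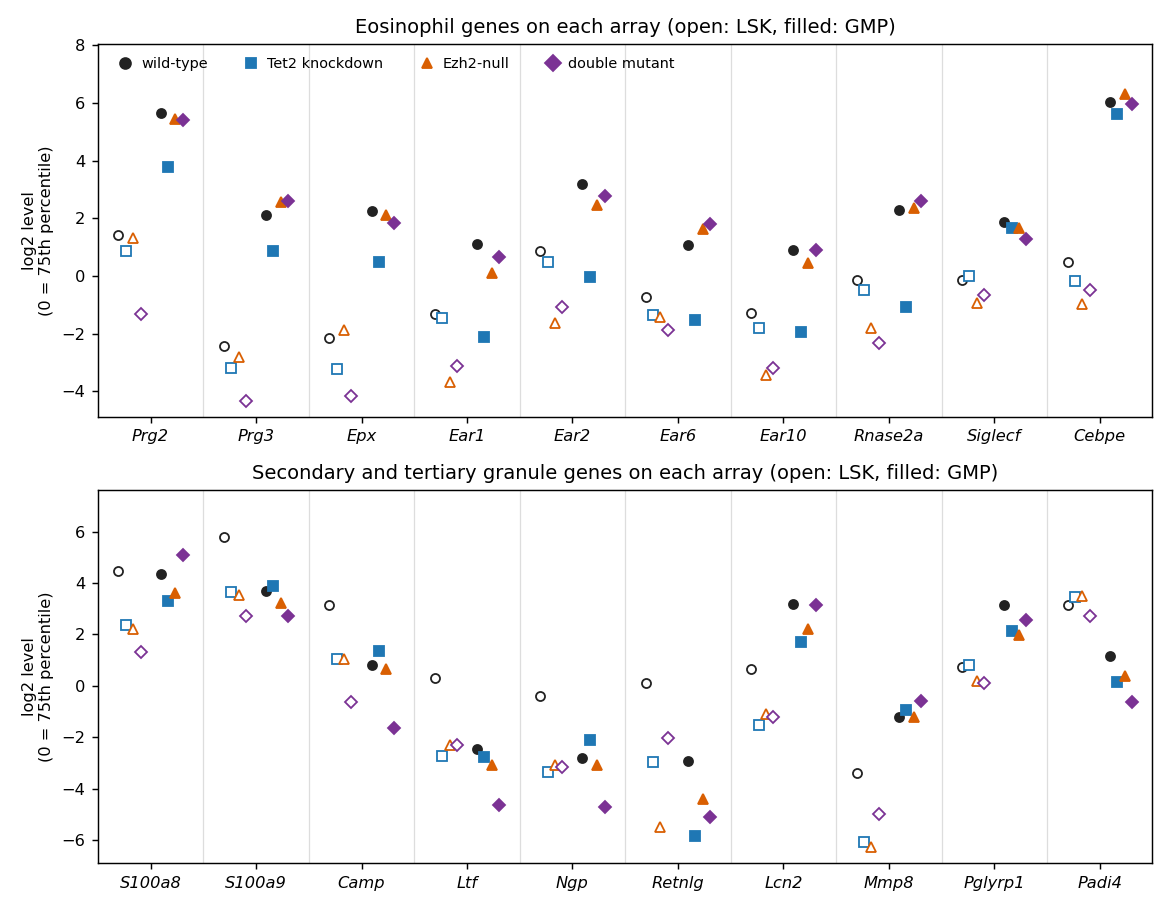
Levels of 10 eosinophil genes (top) and 10 secondary and tertiary granule genes (bottom) on each array (y axis, log2 relative to the array's 75th percentile), with open symbols for LSK and filled symbols for GMP. The filled blue squares of Ear1, Ear2, Ear6, Ear10 and Rnase2a lie below the open ones, and the open black circles of S100a8, S100a9, Camp, Ltf and Ngp lie above the other LSK arrays.

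Monocyte and macrophage genes made up a further block of gains, with 12 of 19 tested genes higher and 1 lower, and a median of 2.13. Csf1r, the receptor for macrophage colony-stimulating factor, rose by 2.78 ± 0.11 and Cd14, the coreceptor for lipopolysaccharide, by 5.04 ± 0.15. Ly86 (5.04 ± 0.28) and the chemokine receptor gene Cx3cr1 (3.59 ± 0.21) rose in each pair. Ccr2, the chemokine receptor of inflammatory monocytes, had pair differences of 5.15, 6.19, 5.18 and 2.31, and was above background on 3 of 4 LSK arrays. Adgre1, which encodes the macrophage antigen F4/80, was not well above background on any LSK array and was at least 27.0-fold higher in GMPs. The member that fell was Nr4a1, which is also an immediate-early gene. Ctss, Tlr4 and Klf4 were among those that did not pass.

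All 8 genes of the NADPH oxidase, which makes superoxide, rose, with a median of 1.18. Cybb, the catalytic subunit, was at background on all LSK arrays and at least 10.3-fold higher in GMPs, and its partner Cyba rose by 1.24 ± 0.15. Ncf1, a cytosolic subunit, rose by 2.15 ± 0.14. Among 30 pathogen sensing genes 17 rose and 3 fell. Tlr2 rose by 1.75 ± 0.10, Tlr1 was at least 4.91-fold higher, and the adaptor gene Tyrobp rose by 3.01 ± 0.13. The adaptor gene Myd88 (0.09 ± 0.18, adjusted p = 0.696) and the receptor genes Tlr4 (0.41 ± 0.22), Tlr7 (-0.36 ± 0.19) and Tlr9 (0.02 ± 0.12) did not pass. Among 38 lysosome genes 25 rose and 2 fell, with a median of 0.65, led by the cathepsin genes Ctsh (3.71 ± 0.26) and Ctsz (2.23 ± 0.14) and the sialidase gene Neu1 (2.21 ± 0.23).

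The myeloid transcription factors did not move as a block: 9 of 32 rose, 15 fell, and the median was -0.26. Among all genes tested, 31.5% were higher and 21.9% lower. Cebpe, which drives the later granulocyte stages, had levels of 0.49, -0.18, -0.98 and -0.49 in LSK cells and 6.02, 5.61, 6.31 and 5.95 in GMPs. No other member had so large a difference (6.26 ± 0.30). Its relatives Cebpa (2.28 ± 0.11) and Cebpd (3.36 ± 0.16) rose, while Cebpb (0.29 ± 0.19, adjusted p = 0.234) did not pass. Irf8, a factor of monocyte and dendritic cell fate, rose by 2.89 ± 0.20, Gfi1 by 1.31 ± 0.17, Spi1 by 1.07 ± 0.17 and Myb by 0.75 ± 0.11. Runx1 (0.10 ± 0.12) and Myc (-0.11 ± 0.13) did not pass. Among the members that fell were Egr1, Egr2, Fos, Jun, Junb and Jund, which belong to the immediate-early genes described below, and the retinoic acid receptor gene Rara (-1.57 ± 0.23).

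Of 36 tested cytokine receptor genes 12 rose and 15 fell, against 31.5% higher and 21.9% lower among all genes tested. The number that rose was thus near the share of all genes. The median was 0.02 and took either sign over the alternatives (-0.21 to 0.14). Several receptors that act in granulocyte and monocyte formation rose, though not all: Csf2ra and Csf2rb, the chains of the GM-CSF receptor, by 1.37 ± 0.20 and 1.63 ± 0.12, Il3ra by 1.26 ± 0.11 and Il6ra by 1.82 ± 0.19. Csf2rb has a close paralog, Csf2rb2, whose probe gave 0.85 ± 0.14. Both interferon gamma receptor genes rose, Ifngr1 by 1.62 ± 0.18 and Ifngr2 by 1.11 ± 0.15. Csf3r, the G-CSF receptor, had levels of 7.60, 7.33, 7.24 and 7.57 in LSK cells and 7.54, 7.69, 7.63 and 7.58 in GMPs. These ranges overlapped, and the difference of 0.17 ± 0.13 did not pass (adjusted p = 0.297). Among the receptors that fell, Epor, the erythropoietin receptor, did so by 2.76 ± 0.34, Flt3 by 4.55 ± 0.48 and Il1r1 by 3.20 ± 0.15. Il7r was at least 4.79-fold lower and Il18r1 at least 12.3-fold lower, both at background on every GMP array. Il7r is also listed among the lineage markers of the depletion, so its difference is no finding.

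Of 30 chemokine receptor and adhesion genes 11 rose (7 after quantile normalization) and 10 fell, against 31.5% and 21.9% of all genes tested. Vcam1 (3.61 ± 0.50) and the integrin genes Itgal (1.39 ± 0.13) and Itgb1 (0.58 ± 0.11) rose. Esam, an endothelial adhesion molecule that marks stem cells, was at least 80.7-fold lower in GMPs, Itga9 at least 6.93-fold lower, and Selp, P-selectin, fell by 1.22 ± 0.14. Itgam, the CD11b gene, lay near 5 in both cell types (-0.18 ± 0.14, adjusted p = 0.303). The genes used for sorting are no finding: Ly6a, Kit and Cd34 were lower and Fcgr3 and Fcgr2b higher in GMPs.

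Stem cell regulators were lower in GMPs. Of 35 transcription factors, all tested, 28 fell (18 to 31 over the alternatives) and none rose, with a median of -1.82. Hlf, a regulator of stem cell maintenance, had levels of 3.95, 3.97, 3.82 and 3.79 in LSK cells and -0.38, -0.54, -0.35 and -0.90 in GMPs. Its LSK values were within 0.2 of each other, and the difference was -4.43 ± 0.13. Meis1, a HOX cofactor, fell by 3.35 ± 0.11, Gfi1b by 4.37 ± 0.24, Tal1 by 1.82 ± 0.16 and Hoxa9 by 1.99 ± 0.17. Below background on every GMP array were Mn1 (at least 32.4-fold lower), Gata3 (at least 24.0-fold), Prdm16 (at least 11.7-fold), Tcf15 (at least 10.1-fold) and Mecom (at least 9.38-fold). Another 7 did not pass, among them Etv6 (-0.12), Hoxb4 (-0.10), Lyl1 (-0.02), Fli1 (0.09) and Eya1 (0.13). Among stem cell surface genes 22 of 31 fell (13 to 23 over the alternatives) and 2 rose, among them the chemokine receptor gene Cxcr4 (0.55 ± 0.18). Robo4, a guidance receptor of stem cells and endothelium, had levels of 3.11, 3.00, 3.24 and 3.04 in LSK cells and was at background in all GMPs. Procr, the endothelial protein C receptor, fell by 4.02 ± 0.35 and Angpt1 by 3.39 ± 0.31, while Cd48 (0.07 ± 0.13) and Itga6 (0.01 ± 0.18) did not pass.

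Of 25 tested lymphoid priming genes 19 fell and 3 rose, with a median of -3.23, or -2.45 with dim genes at their bounds. Over the alternatives 10 to 20 fell, and the median lay between -3.64 and -1.51. The pair medians were -1.97, -2.75, -4.75 and -3.84, further from 0 in the Ezh2-null and double mutant pairs. With each gene centred on its mean, the list medians were 0.816, 1.039, 2.23 and 2.124 on the LSK arrays. On the GMP arrays they were -1.224, -1.347, -1.22 and -1.385, with 7 genes at background on every GMP array. The pairs thus differed mainly in their LSK levels. Rag1, a subunit of the recombinase that rearranges antigen receptor genes, was near background in LSK cells, on 2 of 4 arrays above it, and not above it in GMPs. Rag2 had pair differences of -1.42, -1.08, -2.91 and -4.39. Ccr9 was at least 6.41-fold, Ccr7 at least 15.1-fold and Ly6d at least 16.2-fold lower in GMPs. Lck, the T cell kinase, fell by 4.47 ± 0.30 and Satb1 by 1.94 ± 0.30. Notch1 (0.15 ± 0.11) and Tcf7 (-0.90 ± 0.37) did not pass, and Cd53 (0.53 ± 0.11) and Cnn3 (1.02 ± 0.29) were among those that rose.

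Megakaryocyte and platelet genes fell in 17 of 21 cases and none rose, with a median of -2.89. Over the alternatives 11 to 18 fell, and the median lay between -3.18 and -1.42. Mmrn1 was at least 22.5-fold lower, the glycoprotein gene Gp5 at least 9.22-fold lower, and Gp9 fell by 3.28 ± 0.21. Pf4, platelet factor 4, fell by 2.99 ± 0.30 and F2r, a thrombin receptor, by 4.95 ± 0.22. Of 17 tested erythroid genes 14 fell and 1, the transferrin receptor gene Tfrc, rose (1.66 ± 0.13). Hbb-bt stood far lower in GMPs in each pair, from -7.34 to -5.98, and Car2, carbonic anhydrase 2, fell by 5.03 ± 0.19. The alpha globin gene Hba-a2 had pair differences of -3.69, -0.44, -2.40 and -2.35, and its copy Hba-a1 gave -4.10, -0.32, -2.67 and -1.68. The copies are near-identical, so these 2 probes are not independent readings. Klf1, the erythroid regulator, fell by 1.31 ± 0.12. Markers of endothelium and stroma were sparse: of 18 listed genes 11 were tested, 1 rose and 6 fell, and Col1a1, Col3a1 and Cdh5 did not reach the background filter.

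Genes of antigen presentation were lower in GMPs, with 11 of 15 dendritic cell and MHC class II genes down and none up (median -1.72). Cd74, the invariant chain, had pair differences of -5.52, -5.73, -4.25 and -4.86 and was above background on 3 of 4 GMP arrays. H2-Aa was at least 20.9-fold lower, and H2-Ab1 fell by 1.72 ± 0.26. Siglech, a receptor of plasmacytoid dendritic cells, lay above 8 in both cell types (0.05 ± 0.14, adjusted p = 0.808). Among 14 tested genes of mature B, T and NK cells 3 rose and 8 fell. The summed level of T and NK cell markers was 2.20 to 2.62 in LSK cells and 2.36 to 2.71 in GMPs. These ranges overlapped, but the sum was close to the level of Cd3e alone, which did not pass (0.20 ± 0.13). On the wild-type arrays Cd3e read 2.38 in LSK cells and 2.59 in GMPs, against sums of 2.47 and 2.62. Klrb1c was at least 3.30-fold lower in GMPs. Cd3g was also called lower, above background on 2 of 4 LSK arrays and on no GMP array. The summed level of B cell markers was 3.56 to 3.65 in LSK cells and 4.07 to 4.47 in GMPs, higher on every GMP array. It rests on 2 of 4 listed markers, since Ms4a1 and another did not reach the background filter, and its part in the results was not tested.

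All 34 listed folding, translocation and glycosylation genes of the endoplasmic reticulum (ER) rose in GMPs. Their median difference was 1.57, and 32 to 34 of them rose in the alternative analyses. The promoters of 2 of them are shown because they carry the ER stress response type letters in capitals, CCAAT and CCACG with 9 bases of any kind between them.
Hspa5 promoter, chr2:34771840-34772139, + strand: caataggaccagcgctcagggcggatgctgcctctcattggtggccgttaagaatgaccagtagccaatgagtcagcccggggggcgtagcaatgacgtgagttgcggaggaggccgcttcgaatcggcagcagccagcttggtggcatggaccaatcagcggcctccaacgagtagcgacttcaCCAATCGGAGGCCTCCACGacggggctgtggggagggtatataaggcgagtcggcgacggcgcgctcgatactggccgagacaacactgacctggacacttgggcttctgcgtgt
Hsp90b1 promoter, chr10:86705395-86705694, - strand: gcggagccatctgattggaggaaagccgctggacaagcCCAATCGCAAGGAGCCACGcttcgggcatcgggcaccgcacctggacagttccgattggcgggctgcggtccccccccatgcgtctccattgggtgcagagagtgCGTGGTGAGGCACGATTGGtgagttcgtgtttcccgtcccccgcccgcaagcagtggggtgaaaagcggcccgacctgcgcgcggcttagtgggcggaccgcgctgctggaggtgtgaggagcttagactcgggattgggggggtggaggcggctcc

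Hspa5, the chaperone BiP that governs the unfolded protein response, had levels of 6.00, 6.24, 6.12 and 5.76 in LSK cells and 7.97, 8.22, 8.03 and 7.91 in GMPs. The difference of 2.00 ± 0.10 (adjusted p = 0.000101) varied little between genotypes. Hsp90b1, the paralog of HSP90 in this compartment, rose by 2.54 ± 0.12, and Sdf2l1 had the largest difference of the list at 3.12 ± 0.18. The disulfide isomerase genes P4hb (2.02 ± 0.16), Pdia4 (1.93 ± 0.13) and Pdia6 (2.04 ± 0.14) rose alongside the translocon genes Sec61a1 (1.51 ± 0.13) and Sec61b (1.57 ± 0.13). Xbp1, a transcription factor of the unfolded protein response, rose by 1.55 ± 0.18 and its activator Ern1 by 1.33 ± 0.17. The response type letters were found in 39 of 32851 RefSeq windows (0.119%) and in 7 of 30 windows of this list (23.3%): those of Calr, Canx, Creld2, Dnajc3, Hsp90b1, Hspa5 and Pdia6. In Hspa5 they began at -65, and in Hsp90b1 at -212 and, on the other strand, at -107.

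The metabolic lists had medians below 1 log2 unit, with larger differences for single genes. Alas1, the first enzyme of haem synthesis, had levels of 3.97, 4.22, 3.99 and 3.88 in LSK cells and 8.04, 7.78, 7.81 and 8.17 in GMPs (3.93 ± 0.15). Of 13 tested haem synthesis genes 9 rose and none fell, while 5 rose after quantile normalization and 5 without the wild-type or the double mutant pair. In glycolysis 14 of 23 genes rose and 5 fell. Hk3, the hexokinase of myeloid cells, rose by 3.25 ± 0.21 and Pgam1 by 2.04 ± 0.17, whereas Aldoc fell by 3.88 ± 0.20 and the glucose transporter gene Slc2a3 by 2.60 ± 0.18. Of 29 pentose phosphate and redox genes 17 rose and 1 fell, with a median of 0.60, against 12 and 4 with a median of 0.16 after quantile normalization. The NADPH-forming enzymes G6pdx (1.84 ± 0.14) and Pgd (2.29 ± 0.18) and glutathione reductase, Gsr (2.94 ± 0.16), were among them, and Gpx3 was at least 18.6-fold higher, at background on every LSK array. Idh1, the cytosolic isocitrate dehydrogenase, rose by 2.93 ± 0.15.

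The mitochondrial gains were small and depended on the scaling. Of 45 respiratory chain genes 42 rose and none fell, with a median of 0.80, and 27 rose after quantile normalization. Cycs, which encodes cytochrome c, rose by 1.62 ± 0.14. For the tricarboxylic acid cycle 21 of 24 rose, and 9 after quantile normalization. Nucleotide synthesis genes rose in 20 of 26 cases, led by Mthfd2 (1.48 ± 0.11) and the ribonucleotide reductase gene Rrm2 (1.35 ± 0.12), with 9 to 20 over the alternatives. Ribosome biogenesis genes rose in 27 of 30 cases (16 to 28 over the alternatives), among them Nolc1 (1.60 ± 0.11) and the nucleolin gene Ncl (1.11 ± 0.16). Of 39 cytosolic ribosomal protein genes 6 rose, with a median of 0.18 that was negative after quantile normalization (-0.03). None rose without the wild-type, the Ezh2-null or the double mutant pair, and 0 to 14 rose over the alternatives. The median of all genes tested was 0.126.

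Of 44 tested cell cycle genes 26 rose and 2 fell, with a median of 0.45, a count that depended on the scaling. Of all genes tested 31.5% were higher and 21.9% lower. Ccne1, the cyclin of entry into S phase, rose by 1.83 ± 0.14, the replication factor gene Mcm10 by 0.87 ± 0.11 and Birc5, which encodes survivin of the mitotic machinery, by 0.78 ± 0.12. Mki67 had pair differences of 0.51, 2.27, 1.70 and 0.17 and only just passed (1.16 ± 0.37, adjusted p = 0.0421), and Pcna did not (0.17 ± 0.11). Cyclin D1, Ccnd1, fell by 0.93 ± 0.12. After quantile normalization 10 cell cycle genes rose and 6 fell, with a median of 0.17. In that setting 3420 of all 13418 genes were higher and 3482 lower, with a median of 0.03. Of 6 tested cyclin-dependent kinase inhibitors 4 fell and 1 rose. Cdkn1c, the p57 inhibitor linked to stem cell quiescence, fell by 3.56 ± 0.30, Cdkn1a (p21) by 1.83 ± 0.17 and Cdkn1b (p27) by 1.00 ± 0.11. The one that rose, Cdkn3 (0.83 ± 0.13), encodes a phosphatase that peaks with mitosis.

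Interferon response genes were lower in GMPs of every genotype. Of 38 tested 30 fell and 1, Gbp3, rose (0.99 ± 0.11). The median was -1.28, and the pair medians were all below 0, with the lowest, -1.54, in the Tet2 knockdown pair. The promoters of 2 genes that fell are shown because they hold the interferon response type letters TTTCNNTTT, in capitals, on either strand.
Ifit3 promoter, chr19:34583279-34583578, + strand: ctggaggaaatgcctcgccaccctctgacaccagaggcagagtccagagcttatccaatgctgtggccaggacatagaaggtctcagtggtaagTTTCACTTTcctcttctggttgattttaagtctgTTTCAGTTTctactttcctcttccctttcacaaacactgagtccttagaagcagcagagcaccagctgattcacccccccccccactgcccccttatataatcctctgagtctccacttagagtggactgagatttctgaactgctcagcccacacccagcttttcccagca
Rsad2 promoter, chr12:26456403-26456702, - strand: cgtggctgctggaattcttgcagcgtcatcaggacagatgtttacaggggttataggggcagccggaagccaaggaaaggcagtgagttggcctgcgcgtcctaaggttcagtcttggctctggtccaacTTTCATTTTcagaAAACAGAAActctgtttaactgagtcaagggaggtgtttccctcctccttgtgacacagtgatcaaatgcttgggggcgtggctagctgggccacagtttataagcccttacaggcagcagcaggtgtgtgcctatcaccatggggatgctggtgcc

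Rsad2, which encodes the antiviral enzyme viperin, had levels of 0.61, 0.84, 1.30 and 1.68 in LSK cells and -2.59, -2.69, -1.81 and -2.33 in GMPs. The groups did not overlap, and it fell by 3.46 ± 0.18. Ifit3, an RNA-binding antiviral protein, was at background on all GMP arrays and at least 8.83-fold lower. Irf7, the factor that amplifies the interferon response, fell by 3.65 ± 0.18, Oas2 by 4.02 ± 0.21 and Isg15, a ubiquitin-like modifier, by 2.17 ± 0.15. The signal transducers fell less: Stat2 by 1.03 ± 0.10 and Irf9 by 1.27 ± 0.12. The receptor genes Ifnar1 (-0.07 ± 0.11) and Ifnar2 (0.33 ± 0.12) did not pass, nor did the proteasome genes Psmb8 (0.21 ± 0.13) and Psmb9 (-0.09 ± 0.15). The searched letters lay in 21 of 37 windows of this list, from 30 genes (56.8%), and in 10.6% of all RefSeq windows. They began at -156 and -122 in Ifit3 and at -120 and, on the other strand, at -107 in Rsad2.

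Of 32 tested genes of TGF-beta, BMP, Notch and Wnt signalling 18 fell and 2 rose, with a median of -0.74. The receptor genes Tgfbr2 (-2.15 ± 0.20) and Tgfbr3 (-3.06 ± 0.29), the signal transducers Smad3 (-1.19 ± 0.13) and Smad5 (-0.99 ± 0.10) and the feedback inhibitor Smad7 (-2.58 ± 0.15) fell. Hes1, a Notch target, was at least 11.1-fold lower, and Id3 fell by 3.33 ± 0.19. The ligand gene Tgfb1 rose by 0.62 ± 0.11, as did Dtx4, an E3 ligase gene (2.69 ± 0.14), while Ctnnb1, beta-catenin (-0.21 ± 0.14), and Notch1 did not pass.

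Immediate-early genes, which cells switch on within minutes of a stimulus, were lower in GMPs than in LSK cells. Of 25 tested 20 fell and none rose, with a median of -1.33. The pair medians were -0.99, -0.97, -2.03 and -2.31, larger in the Ezh2-null and double mutant pairs. Nr4a1, a nuclear receptor, had levels of 7.44, 8.51, 8.86 and 8.48 in LSK cells and 2.93, 4.62, 3.12 and 2.57 in GMPs (-5.01 ± 0.37). Egr1 fell by 3.83 ± 0.38, Dusp5 by 3.49 ± 0.25 and Ier5 by 2.29 ± 0.17, while Fos fell by only 0.88 ± 0.24 and Atf3 (-0.70 ± 0.51) and Klf6 (-0.17 ± 0.21) did not pass. In the diseased pairs, processed on other slides, the median difference was 1.39 (MDS/MPN) and 0.90 (RAEB), that is, higher in GMPs. Disease and slide cannot be told apart there. Without the Ezh2-null pair 15 fell.

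The chromatin lists belong to the pathways of the study's 2 alleles. Among 14 DNA methylation and TET genes 6 rose (2 to 8 over the alternatives) and 3 fell. The share that passed was 64.3%, against 53.5% of all genes tested. The methyltransferase genes Dnmt3a (-0.84 ± 0.13) and Dnmt3b (-0.77 ± 0.12) fell, and Uhrf1, the partner of maintenance methylation, rose by 0.48 ± 0.10. Dnmt1 (0.24 ± 0.10) and Tet3 (0.31 ± 0.13) did not pass. Tet2 narrowly missed the threshold with pair differences of 1.13, 0.97, 1.39 and -0.22 (0.82 ± 0.28, adjusted p = 0.0503), and passed in 7 of 19 alternatives. Among 28 Polycomb genes 5 rose and 8 fell, so that 46.4% passed against 53.5% of all genes tested. Ezh2 rose by 0.59 ± 0.12, a call that held in 16 of 19 alternatives, and its partner Suz12 by 0.76 ± 0.17, while Ezh1, its paralog, fell by 0.78 ± 0.11 and Eed did not pass (0.14 ± 0.11). In Polycomb complex 1 Cbx2 fell by 1.89 ± 0.11, Cbx6 by 1.11 ± 0.10 and Phc1 by 1.56 ± 0.11.

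**Figure D4:**
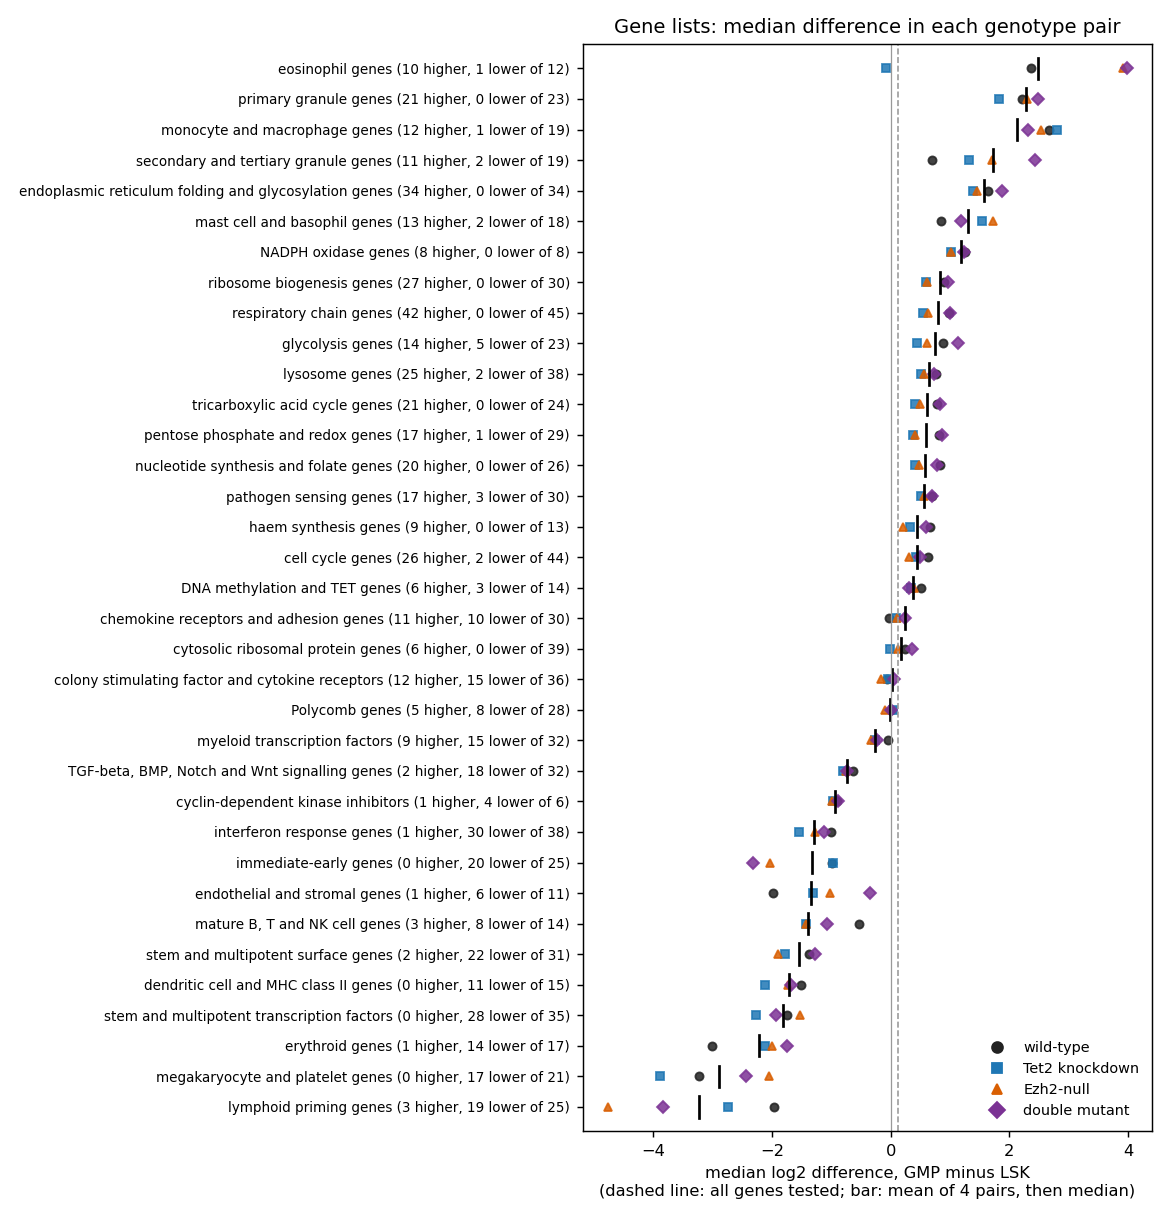
Median log2 difference, GMP minus LSK, of each gene list in the 4 genotype pairs (symbols), with the median of the 4-pair mean differences as a bar and the numbers of higher, lower and tested genes beside each name. The dashed line is the median of all genes tested, 0.126. Granule, monocyte and endoplasmic reticulum genes lie to its right, stem cell, lymphoid and megakaryocyte genes to its left, and the Tet2 knockdown pair stands near 0 for the eosinophil genes.

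How far the step from LSK cells to GMPs depended on genotype was tested as a change of the difference. Ezh2 loss changed it for 250 genes (1.86% of those tested) and Tet2 knockdown for 43 (0.32%). These fits left 1 residual degree of freedom and used 1 common SD of 0.373 for all genes, whatever a gene's own spread. With the genotype effects made additive or after quantile normalization neither term had a call in limma (at an unadjusted p under 0.05 the main fit had 803 and 377 genes). Among genes named by the Ezh2 term, the difference was greater with Ezh2 loss for the ribonuclease gene Rnase2a (by 3.61), Nupr1 (3.42) and Rhoj (3.29). Rnase2a had pair differences of 2.419, -0.562, 4.15 and 4.925, and Rhoj of 0.933, -1.817, 2.778 and 2.911. For both genes the Tet2 knockdown pair alone was below 0, and its part in these terms was not tested. Those of Nupr1 were -2.09, -3.914, -0.164 and 0.991. The difference was more negative with Ezh2 loss for Flt3 (-2.23), with pair differences of -3.45 and -3.42 with Ezh2 and -5.90 and -5.43 without. Atf3 changed by -2.31, from pair differences of 0.76 and 0.15 to -2.03 and -1.69. Ifi209 was higher in GMPs in each pair, by 2.62 to 6.39, and its term of -2.13 stands for a smaller gain with Ezh2 loss. For the Tet2 term the largest values among the named genes were those of Hba-a1 (2.39), Ly6f (2.37) and Fam71a (2.17). Loci with only a provisional symbol were not named and include larger changes. Fam71a had pair differences of -0.89, 3.84, -0.21 and -0.60, with the Tet2 knockdown pair alone above 0. Those of Ly6f were -1.84, 1.44, 0.75 and 2.21, and its wild-type LSK level of 0.37 stood above the other LSK levels of -2.93 to -2.69.

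The 4 diseased arrays, which took no part in the test, gave 2 further pairs of the double mutant genotype. Of the 7174 called genes, 84.9% had the same sign in the MDS/MPN pair and 70.8% in the RAEB pair, against 61.4% and 56.9% of the genes that had not passed. Among the 1249 genes called at 4-fold or more, 1180 and 1129 kept their sign. The primary granule genes had median differences of 1.62 and 1.48 there and the stem cell transcription factors of -1.44 and -1.49. The difference itself changed with disease for 1058 genes (7.88%), a count that was 38 without the RAEB pair and 1600 without the MDS/MPN pair. Elane had differences of 3.89 and 5.22 in the diseased pairs (change -2.07 ± 0.38, adjusted p = 0.0304) and Nr4a1 of 1.75 and 1.02 (change 6.40, adjusted p = 0.0122). The diseased LSK arrays and the diseased GMP arrays were each on a slide of their own, so disease, cell type and slide cannot be told apart in these values. The endoplasmic reticulum genes had medians of 1.51 in MDS/MPN and 0.55 in RAEB, and the eosinophil genes of 5.14 and 5.17.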

How the data were processed

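Total RNA, 250 ng per sample by the labels' protocols, was labelled with Cy3 and hybridised to one-colour Agilent arrays. Per the file headers, the authors used Feature Extraction 10.7.1.1, whose output holds the processed signal intensity of each of 62976 spots, background-corrected by that software, with flags of 0 or 1 (other values) for spots well above background, saturated or outlying. The deposited value table equals the processed intensity at every spot. Control spots and outlier flags were left out, spots of a probe were averaged, and log2 intensity minus the array's 75th percentile over gene spots gave the levels. Of 55681 probes 26762 had 1 symbol through RefSeq accessions (GRCm38.p6 tables, used for names and promoter windows, while the array design names mm9), none had several, and 28919 had none. The brightest probe stood for a gene, and genes with that probe well above background on at least 2 of 8 arrays were tested: 13418 of 20284. Of 1896 called genes with another probe, 160 had the opposite sign there, 39 of them past the threshold.

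The fit was limma 3.58.1 (R 4.3.3, lmFit and eBayes) with cell type and genotype as terms, p-values adjusted by Benjamini-Hochberg across the whole table, and calls at 0.05. Each genotype is a pair, since the labels give both cell types of it 1 array, and no other pairing is stated. Genes at background on all 4 arrays of a cell type are given as bounds: the bright group's mean over the other group's mean of, per array, the higher of the lowest signal above background and the probe's own. The script was tested on simulated data. The changes of the difference by Ezh2 loss, Tet2 knockdown and disease were separate interaction fits. Named genes were the 4 markers, Tet2 and Ezh2, the 8 largest differences and 6 largest bounds in each direction, up to 4 members of each list with the smallest p, the 5 largest changes by each term, and members called for by their role. The 8 largest differences were taken among called genes with the same sign in 4 of 4 pairs and a probe above background on all 8 arrays. Loci with only a provisional symbol (Gm, Rik or LOC) were left out. The comparison, the 37 lists of 969 names (808 distinct ones tested) and the motifs were chosen with earlier results of these data known. Lists are described by counts and medians and were given no test. Alternatives covered scaling, background (normexp with offset 50 on the median signal), floor, filter, probe choice, block, eBayes options, 12 arrays and each pair left out.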

Additional observations from a re-analysis of the deposited data

Results flagged for a closer look

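In groups of 4 arrays the highest or lowest value was compared with the other 3 by Dixon's criterion, in 82 groups of list medians and marker genes, and chance would flag about 1 in 20. List values here are medians over genes after each gene was centred on its mean. For the eosinophil genes the Tet2 knockdown GMP array stood at -0.674, with the other GMP arrays between 1.773 and 2.202. For the myeloid transcription factors the same array stood at 0.233, with the others between -0.199 and -0.163. For the endothelial and stromal genes the wild-type LSK array stood at 1.125, with the other LSK arrays at 0.42 to 0.442. The Elane level of the Ezh2-null LSK array, 1.688, lay below the other 3 LSK arrays at 2.407 to 2.499. The 250 genes whose difference between GMPs and LSK cells changed with Ezh2 loss, the 43 that changed with Tet2 knockdown and the 1058 that changed with disease came from tests of the difference itself, with the limits given beside them.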

How the results depend on the processing

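Over 19 alternative analyses 5528 to 7527 genes passed, and the counts higher and lower in GMPs stayed within 1.5 times those reported. Without the genotype block 7321 passed, against 7174 with it, so the pairing by genotype moved this count by less than 1.5 times. The value table repeats the scanner values and gave nothing new. The counts of genes whose difference changed with genotype or disease moved by more: for Ezh2 loss 0 genes passed with additive terms, 111 with normexp background, 0 after quantile normalization and 124 with trend and robust options, and for Tet2 knockdown 0, 9, 0 and 12. For disease 3321 passed with normexp, and 38 to 1600 with a diseased condition left out. The causes were not tested. Among lists whose median exceeded the SD of its 4 pair medians, those that reversed were the myeloid transcription factors with 12 arrays (0.058), mature B, T and NK cell genes above background on all 8 arrays (0.201), endothelial and stromal genes with no filter (0.058), chemokine receptors and adhesion genes after quantile normalization (-0.01) and with 12 arrays (-0.069), and ribosomal protein genes after quantile normalization (-0.027) and with the percentile over probes above background on all 8 arrays (-0.049). Rpl22 reversed to -0.376 with the mean of all its probes. Medians nearer 0 also changed sign: cytokine receptors (-0.213 to 0.141), Polycomb genes (-0.236 to 0.112) and lineage markers (-0.287 to 0.057). Counts that moved by over 1.5 times include eosinophil genes (5 to 11 rose), immediate-early genes (7 to 21 fell), cell cycle genes (10 to 33 rose), tricarboxylic acid cycle genes (9 to 21 rose), ribosomal protein genes (0 to 14 rose) and mature B, T and NK cell genes (1 to 8 fell). So did those of stem cell transcription factors (18 to 31 fell) and stem cell surface genes (13 to 23 fell). The same held for lymphoid priming genes (10 to 20 fell) and megakaryocyte and platelet genes (11 to 18 fell). Genes near the lowest signal above background have only bounds.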
